A study of Mus musculus with 8 samples.

Results

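The interferon response genes are a list of 38 genes that interferons switch on, followed here in the liver of AIM-/- and AIM+/+ mice over a high-fat diet. Their probes were found by gene name. The array held a probe for 37 of them, 34 under the listed name and 3 (Irgm1, Irf9 and Dhx58) through their RefSeq accession, with 54 probes in all. No probe was found for Xaf1. Of the 37, 35 were well above background on at least 2 of the 8 arrays by the scanner software's own mark and were tested, among 15348 genes tested in all. The 2 others were Oas1g, which was above background on 0 arrays, and Mx1, which was above it on 1. The 38 genes fall into 11 type I induced genes (the Oas, Ifit and Mx families, 9 of them tested), 8 interferon gamma induced GTPases and chemokines (8 tested), 4 transcription factors, 4 nucleic acid sensors and 11 other effectors (10 tested).

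Type I interferons signal through the receptor subunits Ifnar1 and Ifnar2 to a complex that holds Stat2 and Irf9 and binds interferon-stimulated response elements in the promoters of genes such as the Oas and Ifit families. Interferon gamma, a product of T and NK cells, signals through Ifngr1 and Ifngr2, acts at gamma-activated sites and also raises Irf1. Genes of the second kind include the guanylate-binding proteins and immunity-related GTPases, which attack vacuoles that hold parasites, and the chemokines Cxcl9 and Cxcl10, which attract T cells. Many of these genes answer to both kinds of interferon, so the division is one of emphasis.

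Liver RNA came from AIM-/- mice on high-fat diet for 6, 12 and 20 weeks or on normal chow (0 weeks), and from AIM+/+ mice, the wild type, at the same weeks, all on a C57Bl/6 background. AIM, also called Cd5l, is a protein secreted by tissue macrophages, which in liver are the Kupffer cells. There was 1 one-colour Agilent array for each genotype and week, 8 in all, and the labels give neither age nor sex, nor the make of the diet. A week therefore stood in for a replicate of a genotype and a genotype for a replicate of a week, so p-values reflect how these arrays scatter and not how animals of 1 group differ.

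The arrays matched their labels for the deleted gene: Cd5l had a scaled signal of 91.4 to 174 on the 4 AIM-/- arrays and 11860 to 30780 on the 4 AIM+/+ arrays. Scaled signal is the processed intensity after each array's 75th percentile was set to a common value, and it compares arrays for 1 probe, not probes with each other. Between 18598 and 21137 of 41174 probes were well above background per array, and the liver marker Alb was bright on all 8. All 4 AIM-/- arrays lay on 1 slide and all 4 AIM+/+ arrays on another, so genotype and slide cannot be told apart. Both 20-week arrays carried Xist (767.9 in AIM-/- and 809.9 in AIM+/+, against 5.79 to 156 on the other 6) and almost no signal of 4 Y-linked genes (summed scaled signal 19.37 in AIM-/- and 24.98 in AIM+/+, against 2535 to 3233 on the other 6). Results that include 20 weeks therefore mix diet with sex, and values without these arrays are given where they matter. Diet and age cannot be told apart either. Xist was well above background on 4 of the 8 arrays. Off the 20-week arrays its highest signals were 156.1 (AIM-/-, 6 weeks) and 67.38 (AIM+/+, 12 weeks). Both arrays also had Y-linked signal (summed 2534.6 and 2592.5), and the source of their Xist signal was not tested.

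The promoters show what the members share in sequence. RefSeq (GRCm38.p6) promoter windows of 250 bases before to 50 bases after the start were matched for 30 of the 38 genes. A core of the interferon-stimulated response element, spelled as GAAA, any 2 bases, GAAA on either strand, was found in 18 of the 30 members (60%), against 3.99% of all 27025 genes with such windows. The gamma-activated site core TTCNNNGAA was found in 8 of the 30 (26.7%), against 9.55% of all genes. By class, the response element core was in 5 of 8 type I induced genes (62.5%) and 5 of 7 interferon gamma induced genes (71.4%), and the gamma-activated site core in 2 of 8 (25%) and 1 of 7 (14.3%). A longer form, with CT after the second GAAA, was in 11 of the 30 (36.7%), against 0.303% of all genes. A match is a description of letters and not evidence of binding.

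The stretches around these letters are shown for 3 type I induced genes (Ifit2, Oas3 and Oas1a) and 3 interferon gamma induced genes (Gbp3, Gbp2 and Cxcl10), those with the largest diet differences among the members of these 2 classes that held a motif. Igtp and Isg15 were added after their values were seen. All are on build GRCm38.p6, read 5′ to 3′ on the gene's strand, with both kinds of motif in capitals. Joined capitals are overlapping copies of the response element core. Oas1a and Igtp hold both motifs, the gamma-activated site before the response element and without overlap. The Ifit2 stretch lies at chr19:34550444-34550476 (plus strand) and holds a gamma-activated site core only. Oas3 is at chr5:120777710-120777749 (minus strand) and Oas1a at chr5:120907526-120907638 (minus strand). Gbp3 is at chr3:142559984-142560029 and Gbp2 at chr3:142620589-142620628, both on the plus strand. Cxcl10 is at chr5:92349078-92349117 (minus strand), Igtp at chr11:58199496-58199546 (plus strand) and Isg15 at chr4:156200860-156200911 (minus strand).
Ifit2: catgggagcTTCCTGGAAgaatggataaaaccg
Oas3: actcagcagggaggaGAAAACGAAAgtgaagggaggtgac
Oas1a: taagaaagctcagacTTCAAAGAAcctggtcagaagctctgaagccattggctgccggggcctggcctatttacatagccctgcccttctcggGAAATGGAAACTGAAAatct
Gbp3: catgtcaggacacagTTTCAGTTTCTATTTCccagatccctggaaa
Gbp2: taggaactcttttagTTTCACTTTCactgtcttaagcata
Cxcl10: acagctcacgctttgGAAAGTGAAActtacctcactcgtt
Igtp: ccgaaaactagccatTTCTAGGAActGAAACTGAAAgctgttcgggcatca
Isg15: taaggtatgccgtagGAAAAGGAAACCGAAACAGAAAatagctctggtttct

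Members passed the test in 1 comparison, that of high-fat diet with chow. In the comparison of the mean of 6, 12 and 20 weeks with chow, 5 of the 35 tested members rose and 0 fell at adjusted p under 0.05 (limma, Benjamini-Hochberg over all 15348 genes). Over all genes, 2.34% were called in either direction and 1.54% higher on the diet. Of the 5, 4 were type I induced (Ifit2, Oas3, Oasl2 and Oas1a) and 1 was interferon gamma induced (Igtp). Ifit2 and Oas3 passed the filter on dim probes only through diet arrays. Their calls, and their part in the type I induced medians and counts here and below, therefore do not bear on how the classes compare. The median difference was 0.80 (log2) over the 35 members and -0.02 over all genes, and 32 of the 35 differences were positive. By class the median was 1.34 for the 9 type I induced genes, 0.97 for the 8 interferon gamma induced genes, 0.51 for the sensors, 0.43 for the other effectors and 0.36 for the transcription factors. With normexp, another background correction, the order of the first 2 classes turned, with medians of 0.71 for the type I and 0.91 for the interferon gamma induced genes. On bulk liver RNA, a change in the number of cells of a type and a change in RNA per cell cannot be told apart.

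Among the type I induced genes, Oas1a, an oligoadenylate synthetase that switches on the RNA-cutting enzyme RNase L, had a scaled signal of 192.5, 390.5, 776.1 and 632.2 in AIM-/- livers at 0, 6, 12 and 20 weeks, against 196.6, 450.4, 513.3 and 571.8 in AIM+/+ livers. Each of its 6 diet arrays was above both chow arrays, and the difference was 1.48 (log2, SE 0.18, limma adjusted p = 0.0424). The related Oasl2 had 117.8, 253.1, 480.1 and 368.5 in AIM-/- livers, against 121.3, 278.5, 309.8 and 392 in AIM+/+ livers. It too stood higher on every diet array than on either chow array, by 1.50 (SE 0.19, adjusted p = 0.0428). Both genes had nearly the same signal in the 2 chow livers.

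Ifit2, which binds viral RNA and restrains its translation, had 8.004, 31.45, 66.47 and 36.18 in AIM-/- livers at 0, 6, 12 and 20 weeks, against 7.969, 24.95, 42.86 and 41.71 in AIM+/+ livers. It was well above background on 4 arrays, those of 12 and 20 weeks, and on neither chow array. Its fitted difference was 2.28 (limma adjusted p = 0.0268), and its rise was 3.58-fold with the chow signals floored. The floor sets the diet mean against, on each chow array, the higher of the lowest signal marked as above background and the gene's own. Oas3, the largest synthetase of the family, had 14.58, 29.05, 54.88 and 50.65 in AIM-/- livers, against 10.12, 34.27, 33.4 and 29.4 in AIM+/+ livers. Only the AIM-/- arrays of 12 and 20 weeks were well above background. Its fitted rise was 3.08-fold (limma adjusted p = 0.0482), which flooring its chow signals in the same way left unchanged. Neither fold is a lower bound, because both diet means include arrays that were not well above background. With normexp the fitted differences were 0.43 for Ifit2 and 0.35 for Oas3 and neither gene was called.

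Igtp, an immunity-related GTPase also named Irgm3, had 2729, 4995, 4229 and 5572 in AIM-/- livers, against 2726, 4586, 3935 and 6751 in AIM+/+ livers. Every diet array was above both chow arrays, with a difference of 0.85 (SE 0.13, adjusted p = 0.0496), smaller than that of the 4 type I induced genes called. Its relatives did not pass the test: Irgm1, which steers the other GTPases of the family, differed by 0.29, Iigp1 by 0.06 and Ifi47 by -0.08.

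**Figure D1:**
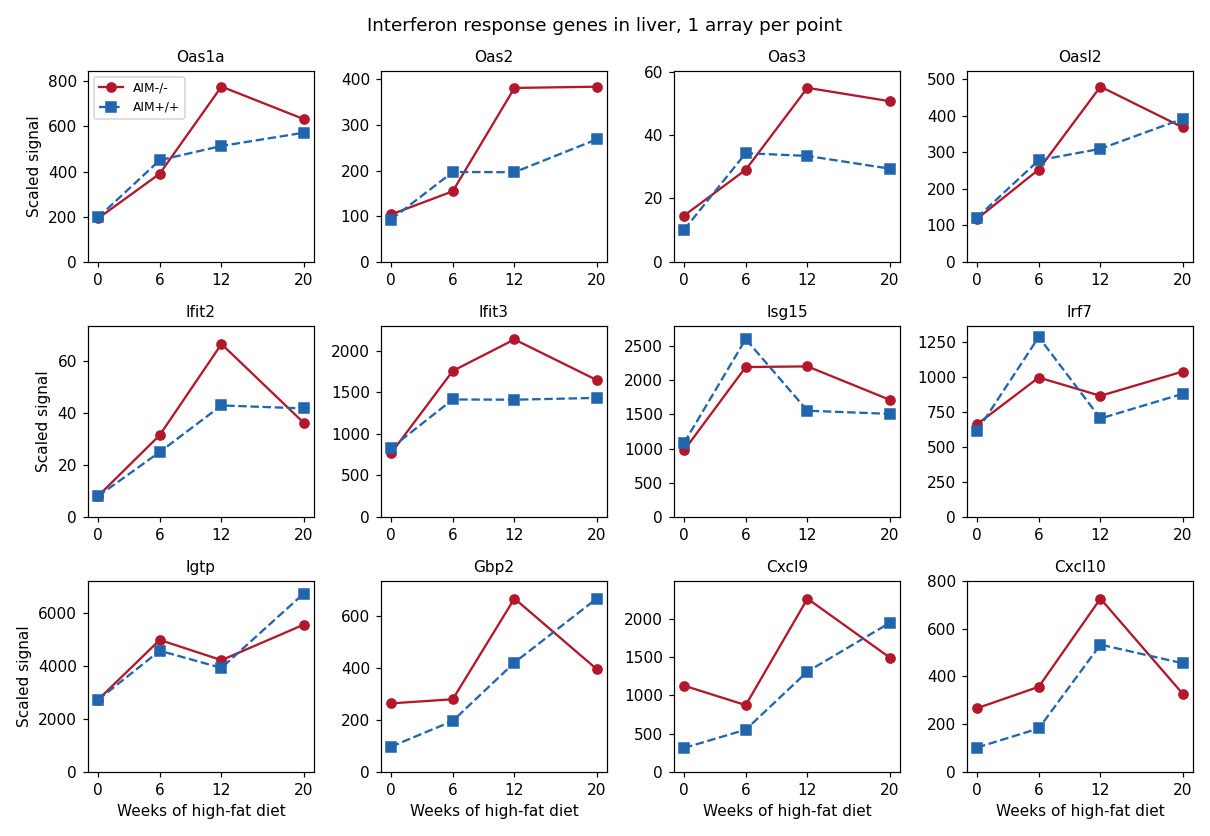
Scaled signal (linear axis from 0) of 12 members against weeks of high-fat diet, 0 being chow, with 1 array per point, red circles and solid lines for AIM-/- and blue squares and dashed lines for AIM+/+. Oas1a, Oasl2, Ifit2 and Igtp are lowest at 0 weeks in both genotypes, while Cxcl9, Cxcl10 and Gbp2 start higher in the AIM-/- than in the AIM+/+ chow liver.

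Several members came close to the threshold without passing it. Ifi44 differed by 1.89 (adjusted p = 0.0505), Ifit3 by 1.02 (adjusted p = 0.0536) and Gbp3, a guanylate-binding protein, by 1.59 (adjusted p = 0.0552). Gbp3 had 348.7, 558.1, 825.7 and 942.4 in AIM-/- livers, against 179.3, 594.7, 621.6 and 1128 in AIM+/+ livers, so that all 6 diet arrays lay above both chow arrays. Isg15, the ubiquitin-like protein that interferon-treated cells attach to other proteins, had 973.3, 2193, 2203 and 1714 in AIM-/- livers, against 1082, 2602, 1554 and 1508 in AIM+/+ livers. Its diet arrays too were all above the chow arrays, by 0.91 (adjusted p = 0.0707), and Usp18, which removes Isg15, differed by 1.20 (adjusted p = 0.0723). The array files place the Isg15 probe on chromosome 17 and RefSeq places Isg15 on chromosome 4, so what that probe reads is less certain than for the other members. At an unadjusted p under 0.05, 23 of the 35 members and 3870 of all genes were counted.

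The transcription factors had the lowest median difference of the classes (0.36), against -0.02 over all genes. Irf7, the factor that amplifies type I interferon production, had 659.8, 993.6, 863 and 1036 in AIM-/- livers, against 611.9, 1282, 701.6 and 877.3 in AIM+/+ livers. All its diet arrays were above its chow arrays, by 0.57 (adjusted p = 0.127). Stat2 differed by 0.37, Irf9 by 0.36 and Irf1 by 0.23, and 0 of the 4 passed the test. Among the sensors, Zbp1, which recognises left-handed nucleic acid and can start necroptosis, differed by 1.42 (adjusted p = 0.0849) and Dhx58, a regulator of the other RNA helicases, by 0.86 (adjusted p = 0.105). The RNA sensors Ddx58 (RIG-I) and Ifih1 (MDA5) differed by 0.12 and 0.15.

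Members at or near no difference were spread over the classes. Mx2 differed by -0.09, Trim25, a ubiquitin ligase that activates RIG-I, by -0.10, and the antiviral membrane proteins Bst2 and Ifitm3 by 0.06 and 0.05. Mx1 and Mx2 carry defective alleles in the C57BL/6 strain. Ifi35 differed by 0.07, and Oasl1, which in mice holds back translation of Irf7, by 0.24. Probes of a gene did not always give the same difference: the dimmer probe of Trim25 differed by 0.92 and the dimmer probe of Ifi44 by 0.34.

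**Figure D2:**
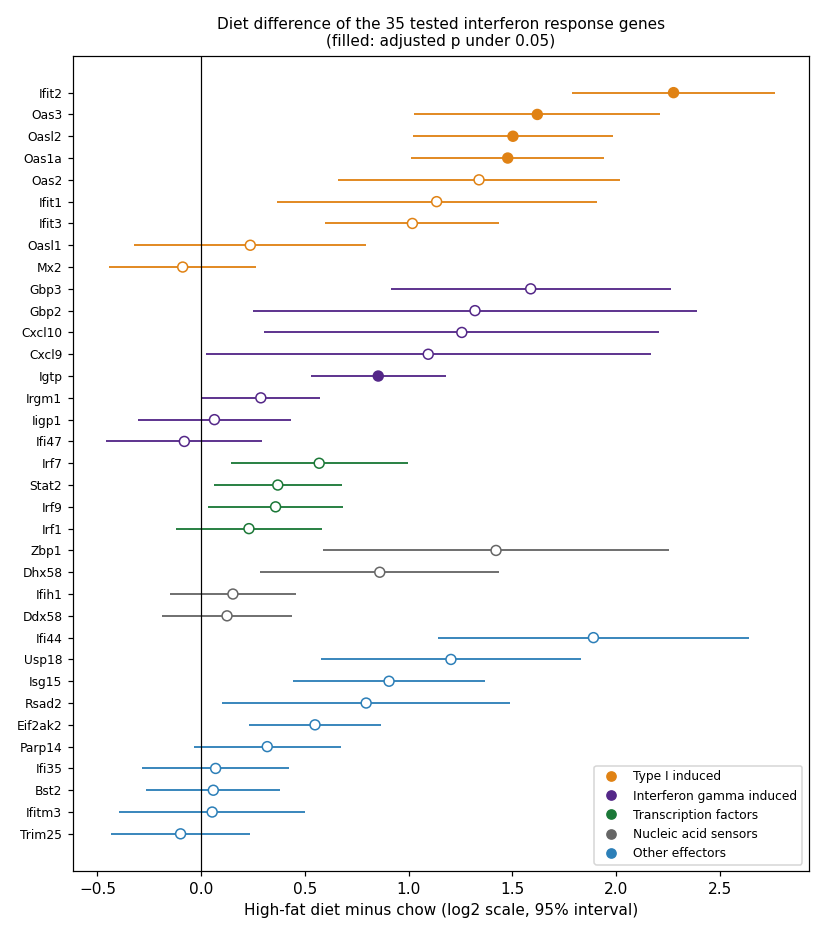
Difference between high-fat diet (mean of 6, 12 and 20 weeks) and chow on the log2 scale for the 35 tested members, with 95% intervals of the fit, grouped by class and coloured by it. Filled points mark the 5 members called: Ifit2, Oas3, Oasl2, Oas1a and Igtp.

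In single arrays, all 6 diet arrays were above both chow arrays for 19 of the 35 members (54.3%), among them 7 of the 9 type I induced genes (77.8%) and 2 of the 8 interferon gamma induced genes (25%), and for 10.4% of all genes. The 7 include Ifit2 and Oas3, which the filter kept only through diet arrays, so their place in these counts carries no weight. No member had all diet arrays below both chow arrays. Without the 20-week arrays the share was 60% of the members and 13.7% of all genes, with 7 of 9 type I induced and 3 of 8 interferon gamma induced genes. The median difference without them was 0.71 over the members, 1.24 for the type I and 0.79 for the interferon gamma induced genes.

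The calls on diet depended on each array. Without the 20-week arrays 0 members and 0 of all genes were called, with differences of 2.28 for Ifit2, 1.60 for Oas3, 1.42 for Oasl2, 1.40 for Oas1a and 0.70 for Igtp and adjusted p of 0.0862 to 0.134. Without the AIM+/+ 6-week array 1 member was called (Oas3, adjusted p = 0.0453), and without any other single array, either chow array included, 0 were.

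The class medians parted when each genotype was followed from its own chow array. The type I induced genes were a median of 1.10, 1.91 and 1.65 above chow in AIM-/- livers at 6, 12 and 20 weeks, against 1.09, 1.08 and 1.53 in AIM+/+ livers. The interferon gamma induced genes were 0.35, 0.82 and 0.35 above chow in AIM-/- livers, against 0.79, 1.16 and 1.73 in AIM+/+ livers. At each week the type I induced median was thus as far or farther from chow in AIM-/- livers, and the interferon gamma induced median was closer to it. Over all genes these medians lay between -0.06 and 0.03. The 3 values of a genotype share its lone chow array, and the pattern has no replicate.

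**Figure D3:**
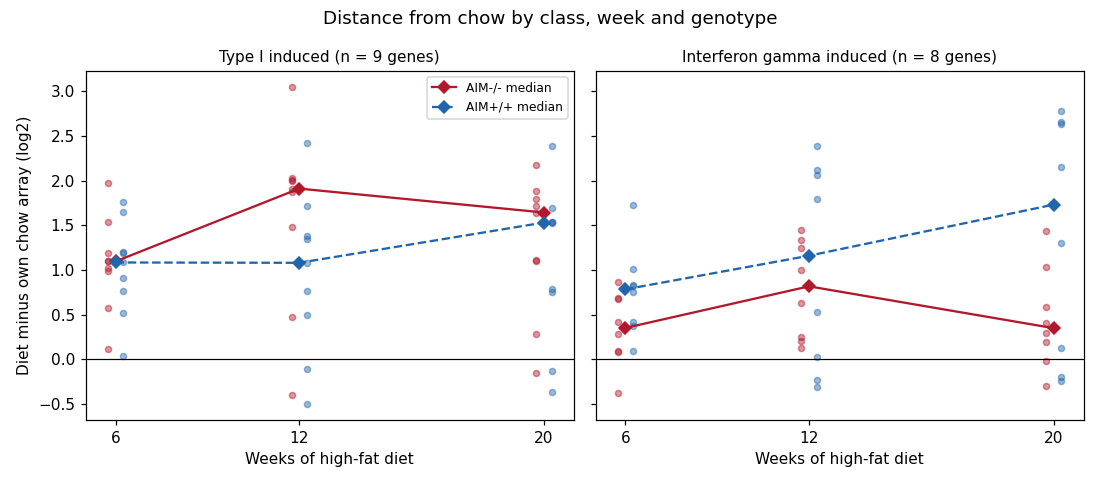
Log2 difference of each diet array from the chow array of the same genotype against weeks of high-fat diet, for the 9 tested type I induced genes (left) and the 8 interferon gamma induced genes (right). Small points are genes, diamonds are class medians, red for AIM-/- and blue for AIM+/+, and the right panel has the AIM-/- medians below the AIM+/+ medians at all 3 weeks.

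The chemokines and guanylate-binding proteins made up most of the second pattern. Cxcl9 had 1126, 871.3, 2261 and 1493 in AIM-/- livers at 0, 6, 12 and 20 weeks, against 312.3, 551.1, 1310 and 1945 in AIM+/+ livers. Cxcl10 had 266.8, 356.6, 726.1 and 327.3 in AIM-/- livers, against 102, 182.2, 533.4 and 455.2 in AIM+/+ livers. Gbp2 had 262.9, 278.7, 665.2 and 394.3 in AIM-/- livers, against 96.72, 195.5, 419.6 and 665 in AIM+/+ livers. In AIM-/- livers these 3 genes were highest at 12 weeks, and in the chow liver of that genotype they were already above the AIM+/+ chow liver. Their diet differences over both genotypes were 1.09 for Cxcl9, 1.26 for Cxcl10 and 1.32 for Gbp2, none of which passed the test (adjusted p of 0.129 to 0.192).

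Between genotypes, over all 4 weeks, 0 of the 35 members were called by limma, against 0.0326% of all genes. Ddx58 (-0.31, limma adjusted p = 0.841) was the 1 member with an unadjusted p under 0.05. Its dimmer probes that were above background on all 8 arrays differed by 0.25 and 0.05. All 9 type I induced genes had a positive difference, with a median of 0.22. So did 4 of the 8 interferon gamma induced genes, with a median of 0.12, and 7764 of all 15348 genes. The type I induced genes above AIM+/+ numbered 4 on chow, 4 at 6 weeks, 9 at 12 weeks and 7 at 20 weeks. Oas3 passed the filter on dim probes only through 2 AIM-/- arrays, so its place in these genotype counts carries no weight. The dimmer probe of Oas3 had a genotype difference of -0.36. The largest differences were those of Cxcl9 (0.73, SE 0.36, adjusted p = 0.989), Rsad2 (0.59, SE 0.23, adjusted p = 0.898) and Cxcl10 (0.58, SE 0.32), which did not pass either. Rsad2, the antiviral enzyme viperin, had 262.6, 692, 634.5 and 644.5 in AIM-/- livers, against 301.7, 316.3, 365.1 and 416 in AIM+/+ livers. Its diet arrays in AIM-/- livers were all above every AIM+/+ array, while its AIM-/- chow array was the lowest of the 8. The other probe of Rsad2 that was above background on most arrays had a genotype difference of 0.07.

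Whether the diet difference itself depended on genotype was tested as an interaction. By limma 0 members were called, as were 0% of all genes, with 1 member (Rsad2) and 681 of all genes at an unadjusted p under 0.05. The diet difference of Rsad2 was larger in AIM-/- than in AIM+/+ livers by a fitted 1.05 (SE 0.29), which did not pass the test (adjusted p = 0.860). The median interaction was 0.21 for the type I induced genes and -0.48 for the interferon gamma induced genes. Cxcl9 (-1.50, SE 1.12), Gbp2 (-1.30, SE 1.06), Cxcl10 (-1.07, SE 1.02) and Gbp3 (-0.94, SE 0.65) had the most negative values, none of which passed the test. The other 4 interferon gamma induced genes, all GTPases, lay near 0 at -0.02 (Igtp), 0.11 (Ifi47), 0.19 (Irgm1) and 0.19 (Iigp1), so the class median falls in a gap between these 2 sets.

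At single weeks, 1 array stood against 1, so the sizes have no test. On chow, 3 members were at least 2-fold higher in the AIM-/- liver and 0 lower, where 7.85% of all genes were 2-fold apart in either direction: Cxcl9 (3.61-fold), Gbp2 (2.72-fold) and Cxcl10 (2.62-fold). The median difference on chow was 0.48 for the interferon gamma induced and -0.03 for the type I induced genes. At 6 weeks Rsad2 alone passed 2-fold (2.19-fold higher, 7.05% of all genes), and the medians were 0.07 and -0.10.

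At 12 weeks the AIM-/- liver was above the AIM+/+ liver for 30 of the 35 members, against 7599 of all 15348 genes. It was so for all 9 type I induced genes (median 0.63) and for 7 of the 8 interferon gamma induced genes (median 0.35). Oas3, which the filter kept only through AIM-/- arrays, is in the counts of 30 and 9 and carries no weight there. Ifit1, an RNA-binding antiviral protein, was the 1 member at least 2-fold apart (2.36-fold higher, 4.91% of all genes), with 354.9 in the AIM-/- and 150.3 in the AIM+/+ liver. At 20 weeks 0 members were 2-fold apart (4.28% of all genes). The type I induced median was then 0.14, and 7 of the 8 interferon gamma induced genes were lower in the AIM-/- liver (median -0.27), with Iigp1 the exception at 0.02.

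**Figure D4:**
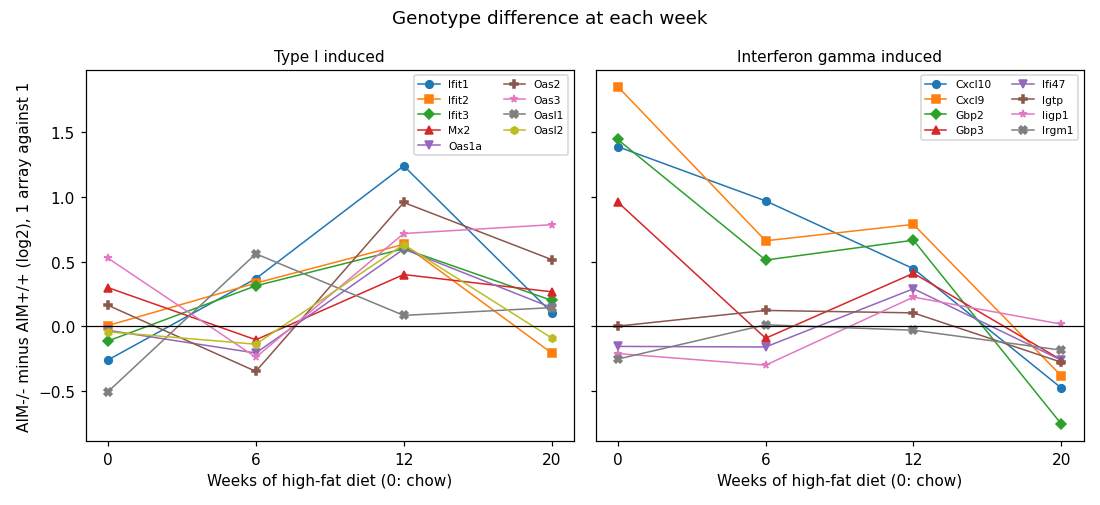
Difference between the AIM-/- and the AIM+/+ array on the log2 scale at each week of high-fat diet (0 is chow), 1 line per gene, for the 9 type I induced genes (left) and the 8 interferon gamma induced genes (right). All 9 lines on the left are above 0 at 12 weeks, and on the right Cxcl9, Gbp2 and Cxcl10 are highest on chow and below 0 at 20 weeks. Oas3, on the left, was kept by the filter on dim probes only through AIM-/- arrays.

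Markers of other cells moved with some of these differences. The summed scaled signal of 16 T and NK cell markers was 823, 827, 1515 and 1043 in AIM-/- livers at 0, 6, 12 and 20 weeks, against 681, 824, 957 and 1100 in AIM+/+ livers. It was thus highest in the AIM-/- liver at 12 weeks, the liver in which Cxcl9, Cxcl10 and the type I induced genes Oas1a, Oasl2 and Ifit2 were also highest. Many members were highest in other livers. Among them, Isg15, Irf7 and Zbp1 were highest in the AIM+/+ liver at 6 weeks, and Igtp and Gbp3 in the AIM+/+ liver at 20 weeks. Rsad2, Usp18 and Oasl1 were highest in the AIM-/- liver at 6 weeks. Of the T and NK cell markers 5 were well above background on all arrays and 3 (Cd3g, Cd2 and Ncr1) on none. Their sum joins markers that moved apart. In the AIM-/- liver at 12 weeks Nkg7 (333.5) and Cd3d (185.8) were at their highest of the 8 arrays. Cd3e (99.97) was lower there than in the AIM-/- chow liver (129.5). The median AIM-/- minus AIM+/+ difference of the 11 tested T and NK cell markers was 0.34, -0.35, 0.78 and -0.10 by week. The summed signal of 11 Kupffer cell and macrophage markers, without Cd5l, was 22866, 23242, 29663 and 23662 in AIM-/- livers, against 21192, 31949, 32207 and 32869 in AIM+/+ livers. This sum hides markers that moved apart. In AIM-/- livers Marco, Timd4, Cd163 and Vsig4 were lower at 20 weeks than on chow (Marco from 3554 to 813.3). The other markers in the sum were higher (Clec4f from 7418 to 8152). Among 8 markers of plasmacytoid dendritic cells, a main source of type I interferon, the defining Siglech was above background on 0 arrays. Diet medians were 0.51 for the 11 tested T and NK cell markers and 0.44 for 12 Kupffer cell and macrophage markers, here with Cd5l. They were 0.48 for the 5 tested plasmacytoid dendritic cell markers, -0.68 for B cell and -0.25 for hepatocyte markers. None of these markers was called on the diet. The part of these cells in the members' differences was not tested.

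From week to week 0 members were called by limma. Between 12 and 6 weeks, 0% of all genes were called and 7 members had an unadjusted p under 0.05 (2718 of all genes). The chemokines Cxcl9 (1.31, SE 0.51) and Cxcl10 (1.29, SE 0.45) had the largest positive values, and Mx2 (-0.77, SE 0.17) the most negative. Ifit2 differed by 0.93 and Oas1a by 0.59, while Irf7 and Irf9 differed by -0.54 and -0.52. Between 20 and 12 weeks, 0.117% of all genes were called and 2 members, Igtp (0.59) and Eif2ak2 (-0.47), had an unadjusted p under 0.05 (2048 of all genes). Eif2ak2 is the kinase PKR, which stops translation when it meets double-stranded RNA. Sex goes with week in this last comparison, and the 2 cannot be told apart.

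Of 79 other genes of the pathway, 66 were tested, and on the diet 3 rose and 0 fell, where 1.54% of all genes rose, with a median of 0.29. The 3 were Psmb9, an immunoproteasome subunit (1.26, adjusted p = 0.0323), Rtp4 (0.78, adjusted p = 0.0496) and Sp100, a protein of nuclear bodies (0.73, adjusted p = 0.0492). Psmb9 had 2756, 5052, 6908 and 6430 in AIM-/- livers, against 2503, 5570, 6481 and 7519 in AIM+/+ livers, with all diet arrays above both chow arrays. All 3 belong to the 35 tested other targets, whose median was 0.59. The 8 ligands and receptors (median 0.09) and the 23 signalling genes (median 0.00) had 0 calls by limma, with 1 and 6 genes at an unadjusted p under 0.05. Of the genes not called, Gbp6 (1.88, adjusted p = 0.0552) and Irf5 (-1.21, adjusted p = 0.0748) had the largest differences.

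In the other comparisons 0 of the 66 were called by limma, with 1 (genotype), 15 (12 against 6 weeks), 8 (20 against 12 weeks) and 2 (interaction) at an unadjusted p under 0.05. Over all 15348 genes these counts were 860, 2718, 2048 and 681. Ccl5, a T cell attractant, had the largest genotype difference of the genes bright in a group (0.76, adjusted p = 0.916), followed by Irf5 (0.39). Ciita, the switch for MHC class II genes, and Ccl5 had the largest ones between 12 and 6 weeks (1.76 and 1.65), and Socs3 and Cmpk2 those between 20 and 12 weeks (1.26 and -0.75). Ifng itself had a scaled signal of 68.57, 21.75, 45.76 and 32.38 in AIM-/- livers at 0, 6, 12 and 20 weeks, against 14.46, 31.38, 39.62 and 31.12 in AIM+/+ livers. Its AIM-/- chow array was the highest of the 8 and its AIM+/+ chow array the lowest, but Ifng was too dim to be well above background on all arrays of either genotype or on both chow arrays, so these values rest partly on background. The 2 genes counted in the interaction were Ifng (-2.33) and Lgals3bp (0.75), neither of which was called. The interaction of Ifng rests on these dim signals and on 1 chow array per genotype. Among the type I interferons Ifna1 was tested and was not called in any comparison.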

How the data were processed

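Processed signal intensity came from the deposited scanner files, which the authors produced in Agilent Feature Extraction (version 9.5 per the submitters' processing notes, 9.5.3.1 per the file headers) from array design 014868. The deposited log2 values of the value table followed the log2 processed signal minus the array's 75th percentile, by comparison with the scanner files (per array, a median absolute difference of at most 0.00213 and a largest one of 0.188 to 0.534), and served as an alternative. Control spots (1639 per array) and outlier spots (75 to 130) were dropped, repeated spots averaged, and each array's 75th percentile was subtracted. Probes well above background on at least 2 arrays were kept (21400), the brightest standing for its gene. Names came from the files and from RefSeq accessions. Probe coordinates in the files are on mm8.

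The model was fitted by limma (3.58.1) under R (4.3.3), files being read by data.table (1.17.8). It held week, as a factor, and genotype (3 residual degrees of freedom), and a second model held the interaction in 4 cells of genotype by diet (4 degrees of freedom), where the lone chow array of a genotype is assumed to vary like the others. Adjusted p under 0.05 was called. The fits were tested on simulated data. Tables and figures used Python 3.11.15 with the packages pandas 2.3.3, SciPy 1.17.1 and matplotlib 3.10.9. The alternatives were normexp (offset 50), quantile normalization, other filters, the mean of a gene's probes, the deposited values, the 20-week arrays left out and each array left out. Members, classes and lists were chosen with earlier results of these data known. The named genes were every member called, 6 chosen by name (Isg15, Irf7, Cxcl9, Cxcl10, Igtp, Gbp2) with values on all arrays, and, of the other pathway genes, those called plus the 2 largest differences per comparison among genes bright throughout a group. Gbp3, Rsad2 and the other members given with values were named after these were seen. Brightness in a group was not marked for the interaction, where Ifng and Lgals3bp were named after their values were seen. The number of arrays limits the precision.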

Additional observations from a re-analysis of the deposited data

Results flagged for a closer look

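Mx1, an antiviral GTPase that was left out of the tests because it passed the background mark on 1 array, had a scaled signal of 210 in the AIM+/+ liver at 6 weeks. On the other 7 arrays it was not well above background, with 28.73, 19.12, 6.497 and 9.87 in AIM-/- livers at 0, 6, 12 and 20 weeks, against 5.727, 6.428 and 7.671 in AIM+/+ livers at 0, 12 and 20 weeks. The second Mx1 probe was above background on 0 arrays. Isg15 (2602), Irf7 (1282) and Zbp1 (1061) also had their highest signal of the 8 arrays in that AIM+/+ liver. Other members did not: Rsad2 had 316.3 there, against 301.7 in the AIM+/+ chow liver. Oas1a, Oasl2, Ifit1, Ifit2 and Ifit3 were highest in the AIM-/- liver at 12 weeks.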

How the results depend on the processing

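Of the members called on the diet, 5 in the main setting, the count was 8 with normexp (3 of them the same genes), 3 with quantile normalization, 0 with no filter on dim probes, 10 among the 33 members well above background on all 8 arrays, 3 with the mean of a gene's probes, 5 with the deposited value table, 0 without the 20-week arrays, and 0 to 1 with each array left out in turn. All of these calls were higher on the diet. Over all genes the count was 359, against 693 with normexp, 234 with quantile normalization, 27 of 28469 with no filter, 905 of 12450 on all 8 arrays, and 0 to 119 with an array left out (119 without the AIM+/+ 6-week array). The same count over all genes was 258 with the mean of a gene's probes, 358 of 15352 with the deposited value table and 0 without the 20-week arrays. Genotype, week-to-week and interaction comparisons had 0 members called in each alternative run. The type I induced diet median was 0.71 with normexp, against 0.91 for the interferon gamma induced genes. Members 2-fold apart between genotypes at 6 weeks numbered 0 with normexp and 0 with the mean of probes, and at 12 weeks 0 and 2. The longer response element form left 11 members. For the normexp, quantile and mean-of-probes values the cause was not tested, while the filters change how many genes are tested and leaving arrays out lowers their number. The interaction could not be fitted without a chow array, nor slide as a block. No analysis paired by replicate number was possible because each group has 1 array, so groups share fewer than 2 replicate numbers. Week as a factor already sets the genotypes against each other within each week. Dim signal limits Ifit2, Oas3, Mx1, Oas1g and Ifng.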
